A study of Mus musculus with 8 samples.

Results

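The heat shock chaperones described here were 10 genes, Hspa1a, Hspa1b, Hspa5, Hspa8, Hsp90aa1, Hsp90ab1, Hsph1, Dnajb1, Hspe1 and Hspd1. They were taken by symbol from the 55450 genes of the matrix, where each symbol belonged to 1 gene. All 10 passed the filter on low counts in each of the 8 cell types that could be tested, which gave 80 pairs of gene and type.

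Livers of 8 wild-type C57BL/6 mice were dissociated and profiled by droplet RNA sequencing, in which each captured mRNA carries a unique molecular identifier (UMI). The 2 control mice had a normal diet and drinking water, the 3 HFD+F+CCl4 mice a high-fat diet, and the 3 WD+F+CCl4 mice a western diet. Both NASH groups also drank fructose solution with glucose and received intraperitoneal CCl4, a liver toxin, during 16 weeks, and no injection of the control mice is described, so that diet, solution and CCl4 cannot be told apart. All livers were perfused, cut and digested in a warm shaking bath with collagenase, papain and DNase, after which red cells were lysed and dead cells removed, and each mouse gave 1 library.

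Chaperones bind unfolded or newly made proteins and release them folded, usually by burning ATP. Hsp70 proteins (Hspa1a, Hspa1b, Hspa8, Hspa5) work with J-domain proteins such as Dnajb1 and exchange factors such as Hsph1, Hsp90 proteins finish kinases and receptors, and the ring of Hspd1 with its lid Hspe1 folds proteins inside mitochondria. Heat or toxic stress raises the cytosolic set through the transcription factor HSF1, stress of the endoplasmic reticulum (ER) raises Hspa5, and warm enzymatic digestion of tissue is itself known to raise Hspa1a and Hspa1b together with immediate early genes such as Fos and Jun.

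Levels are given as CPM, a gene's UMIs scaled to an equal total in each mouse and cell type, for sums of at least 20 cells. Of 88581 barcodes, 80474 were kept, those in which more than 500 genes were detected and mitochondrial UMIs stayed under 25%, 4168 in control mouse 2 and between 9846 and 11999 in the other mice. Libraries held from 6135827 UMIs in control mouse 2 to 64855024 in WD+F+CCl4 mouse 3, and the median UMI count per kept cell was 992.5 and 2397 in the control mice and between 3159 and 4278 in the NASH mice. Of the kept cells, 1467 carried a barcode sequence that was also present in another library. The 20 clusters gave 13 types named by markers, and 5837 cells stayed unnamed. Among these were 2 clusters led by hepatocyte transcripts, 1 with 98.9% of its cells from control mouse 2 and 1 with 98.7% from control mouse 1. The first held 2018 of the 4168 kept cells of control mouse 2. Every list gene was higher in its own type than in the other kept cells, apart from 1 of the 12 monocyte/macrophage markers. The control mice stood apart in what their cells carried. The summed level of 10 hepatocyte markers in T cell-like cells was 1500.2 and 2285.5 CPM in the control mice against 131 to 1137 CPM in the NASH mice, while 12 monocyte/macrophage markers there summed to 1423 and 2108 CPM against 2713 to 4519 CPM. A level from few cells is also limited by counting error, which is the only error that the intervals and limits given for single sums cover.

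The inducible cytosolic Hsp70 genes Hspa1a and Hspa1b were highest in 1 HFD+F+CCl4 mouse in nearly every cell type, with 1 WD+F+CCl4 mouse next for Hspa1a. At the main settings neither model's effect on them was called within a type. They lie head to tail on chromosome 17, at 34969190 to 34972156 (Hspa1a) and 34956436 to 34959238 (Hspa1b), both on the minus strand with 9951 bases between them (GRCm38, GENCODE vM21). They encode nearly the same protein. Of the stretches of 50 bases in the coding part of Hspa1a, 82.4% also occur in Hspa1b, while 0.0% of those in the 3′ UTR of Hspa1a do, the end at which this assay reads transcripts, so the split of UMIs between the genes is uncertain for reads that fall in the coding part. The 250 bases before each start are shown because they are nearly a copy of each other, alike at 247 of 250 positions. Capitals mark the single match to GAANNTTC, which together with TTCNNGAA is the paired form of the element that HSF1 binds. The sequences are those of RefSeq on GRCm38.p6, at chr17:34972157-34972406 and chr17:34959239-34959488 on the minus strand.
Hspa1a: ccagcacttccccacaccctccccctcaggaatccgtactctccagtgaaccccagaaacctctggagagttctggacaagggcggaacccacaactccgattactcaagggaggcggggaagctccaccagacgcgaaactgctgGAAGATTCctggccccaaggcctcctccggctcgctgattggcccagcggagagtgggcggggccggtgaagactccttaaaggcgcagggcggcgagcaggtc
Hspa1b: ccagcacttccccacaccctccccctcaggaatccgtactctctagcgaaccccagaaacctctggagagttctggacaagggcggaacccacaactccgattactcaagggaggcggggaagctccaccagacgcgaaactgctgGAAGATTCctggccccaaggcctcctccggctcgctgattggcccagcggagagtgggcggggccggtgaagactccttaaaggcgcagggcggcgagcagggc
The search covered 300 bases, 250 before and 50 after each start, where the 8-letter forms (each its own reverse complement, so that both strands are read at once) were found in 15.1% of 32851 promoters. Among the 7 members with a promoter in that table, 5 held at least 1 match, and Hspa8, Hsp90aa1 and Hsp90ab1 were not in it. These 5 are not separate cases. The Hspa1a and Hspa1b windows were alike at 296 of 300 bases, and the Hspe1 window shared 285 bases with the matching Hspd1 window. Hspd1, Hsph1 and Dnajb1 had 2 windows each, so the count of members cannot be set against the share of promoters.

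In all kept cells, Hspa1a was at 397, 15.6 and 36.6 CPM in HFD+F+CCl4 mice 1, 2 and 3, at 33.5, 16.3 and 104 CPM in WD+F+CCl4 mice 1, 2 and 3, and at 14.9 and 18.8 CPM in control mice 1 and 2. Hspa1b was at 335, 20.9 and 44.3 CPM, at 40.7, 24.7 and 71.9 CPM, and at 38.5 and 30.9 CPM in the same order. HFD+F+CCl4 mouse 1 was the highest for both genes, at 3.83 times the next mouse for Hspa1a and 4.65 times for Hspa1b, and WD+F+CCl4 mouse 3 came next, while the other 4 NASH mice lay between 15.6 and 36.6 CPM for Hspa1a and between 20.9 and 44.3 CPM for Hspa1b, a range that overlaps with the control mice. These 2 libraries also had the highest median share of mitochondrial UMIs among the NASH mice, 1.73% and 2.14% against 0.914% to 1.07%, beside 3.66% and 1.74% in the control mice. They held 1480 and 1420 endothelial cell-like cells and 423 and 653 Kupffer cell-like cells, against at most 204 and 186 in the other NASH mice, and the part of these differences in the levels was not tested.

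The same mouse stood out in nearly every kind of cell. Of the 12 types with levels in at least 4 mice, HFD+F+CCl4 mouse 1 was highest in 11 for Hspa1a and in 11 for Hspa1b. In the remaining one, erythroid-like cells, it had too few cells for a level and WD+F+CCl4 mouse 3 was highest. Its Hspa1a was between 2.53 times (B cell-like) and 9.16 times (hepatocyte-like) the next highest mouse, and its Hspa1b between 2.23 times (cholangiocyte-like) and 8.19 times (Kupffer cell-like). In monocyte/macrophage-like cells Hspa1a was at 487, 16.4 and 39.8 CPM in the HFD+F+CCl4 mice, at 38.0, 17.0 and 147 CPM in the WD+F+CCl4 mice and at 45.0 and 74.7 CPM in the control mice. In dendritic cell-like cells the values were 748, 24.4 and 46.8 CPM, 48.8, 22.7 and 227 CPM, and 35.2 and 44.8 CPM. In T cell-like cells they were 400.0, 10.6 and 28.8 CPM, 38.4, 15.1 and 108 CPM, and 14.7 and 12.2 CPM. In each of the 3 types NASH mice lay both above and below the control mice. In NK cell-like cells, HFD+F+CCl4 mouse 1 had 357 CPM and WD+F+CCl4 mouse 3 had 93.7 CPM, against 5.29 to 21.8 CPM in the other NASH mice. Control mouse 1 had 7.30 CPM there, and control mouse 2 had 0 among 23168 UMIs, which allows up to 129.5 CPM (3 counts).

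**Figure D1:**
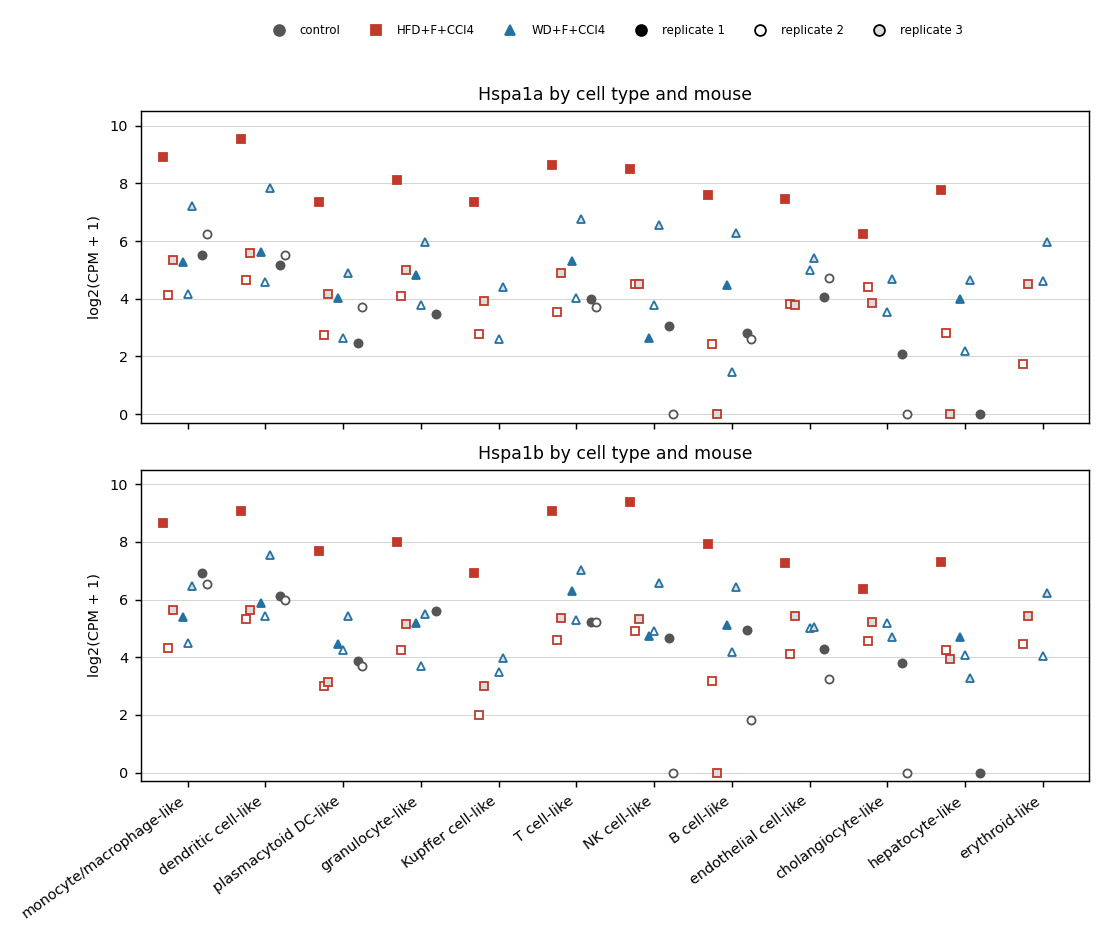
Hspa1a and Hspa1b in each of 12 cell types, as log2 of CPM + 1 of the UMIs summed per mouse and type; each point is 1 mouse, colour and shape give its group and the fill its replicate number. HFD+F+CCl4 mouse 1 is the highest point in 11 types for each gene, and in all kept cells its level was 3.83 (Hspa1a) and 4.65 (Hspa1b) times that of the next mouse.

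With edgeR's quasi-likelihood test, adjusted over all genes, the log2 fold change of Hspa1a in all kept cells was 3.17 ± 1.41 (SE, adjusted p = 0.158) for HFD+F+CCl4 and 1.77 ± 1.32 (adjusted p = 0.38) for WD+F+CCl4 against control. Without HFD+F+CCl4 mouse 1 the first value was 0.91 (adjusted p = 0.473), and without WD+F+CCl4 mouse 3 the second was 0.87. The value of Hspa1b without HFD+F+CCl4 mouse 1 moved from 1.93 to 0.15, and in monocyte/macrophage-like cells that of Hspa1a turned from 1.72 to -0.83 and that of Hspa1b from 0.47 to -1.65 (adjusted p = 0.658 and 0.197). Other settings called the genes. With no filter on low counts, edgeR called both for HFD+F+CCl4 in B, NK, T, dendritic and endothelial cell-like cells, and Hspa1a in cholangiocyte-like cells. For WD+F+CCl4 it called Hspa1a in B, NK, T, dendritic and plasmacytoid DC-like cells, and Hspa1b in B and T cell-like cells. The smallest adjusted p was 9.1e-30, for Hspa1a and HFD+F+CCl4 in T cell-like cells (3.18). HFD+F+CCl4 mouse 2 lay there below both control mice, so that p does not measure the spread between mice. With a replicate block, edgeR called both for HFD+F+CCl4 in NK and cholangiocyte-like cells, and Hspa1a for WD+F+CCl4 in the latter. In NK cell-like cells, where the log2 fold changes for HFD+F+CCl4 were 4.18 ± 1.33 and 3.39 ± 1.10 (adjusted p = 0.082 and 0.092), both were also called without HFD+F+CCl4 mouse 2 (4.69 and 3.92, adjusted p = 0.0135 and 0.0074) and without mouse 3 of that group (4.69 and 3.90, adjusted p = 0.0164 and 0.0142), and Hspa1a without WD+F+CCl4 mouse 3 (4.18, adjusted p = 0.0232). Without HFD+F+CCl4 mouse 1 the values there were 1.60 and 0.58.

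Immediate early and stress genes were also highest in HFD+F+CCl4 mouse 1. Of a list of 21 dissociation and immediate early genes (Fos, Jun, Egr1, Atf3 and others), Cyr61 was at 0.0 CPM in every mouse. All the others had their highest level in HFD+F+CCl4 mouse 1, in all kept cells and in monocyte/macrophage-like cells. WD+F+CCl4 mouse 3 was next for 9 of them in all kept cells and for 8 in monocyte/macrophage-like cells. Their summed level in all kept cells was 7635, 1908 and 3048 CPM in the HFD+F+CCl4 mice, 2720.2, 2272 and 3475 CPM in the WD+F+CCl4 mice, and 1827 and 1741 CPM in the control mice. Its part in the Hspa1a and Hspa1b levels was not tested. A list of 22 HSF1-linked cytosolic chaperones and partners that holds none of the 10 members summed to 2338, 2127 and 2126 CPM, 2115, 2045 and 2382 CPM, and 1834 and 2261 CPM in the same order, so that HFD+F+CCl4 mouse 1 was within the range of the other mice for this list. In T cell-like cells it was the highest of the 8 mice, at 2601 CPM against 2012 to 2413 CPM.

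**Figure D2:**
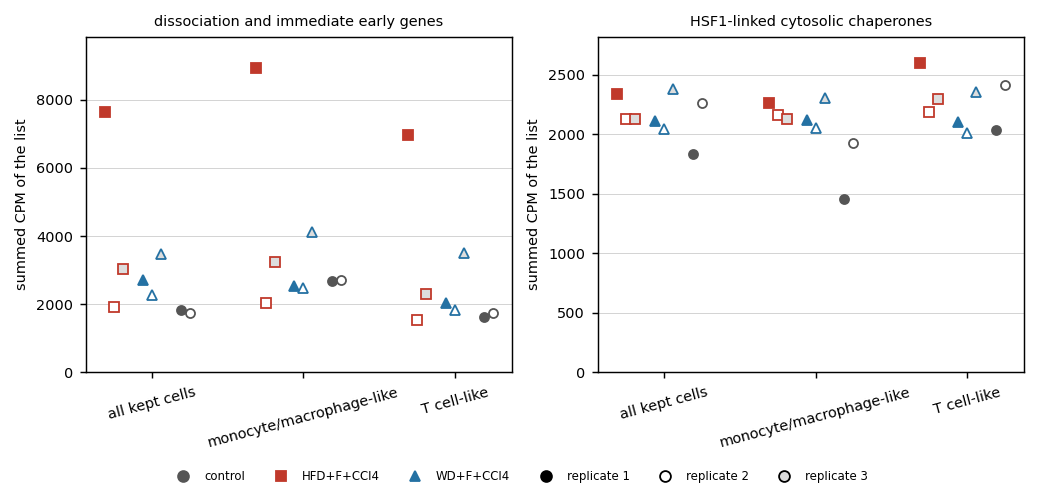
Summed CPM of the dissociation and immediate early list and of the HSF1-linked list for each mouse, in all kept cells, monocyte/macrophage-like cells and T cell-like cells; each point is 1 mouse. The first list reaches 7635 CPM in HFD+F+CCl4 mouse 1 in all kept cells against 1741 to 3475 CPM in the other 7 mice, and the second lies there between 1834 and 2382 CPM in all 8.

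The genes whose levels were most like that of Hspa1a were of the same kind. Over 87 sums of mouse and type and among 7263 genes, the highest Pearson correlations of log2(CPM + 1) were those of Fos (0.78), Klf4 (0.72), Klf6 (0.70), Jun (0.69) and Fosb (0.68), after the member Hspa1b (0.89). The sums share mice, libraries and depth, and the values are a description. The other members were less like it, from 0.35 for Dnajb1 to -0.24 for Hspe1. When the chaperones and the immediate early genes were allowed to shape the clusters, 1 of 21 clusters was led by Hspa1b, Hspa1a, Fosb, Dusp1, Nr4a1 and Klf4. It held 3738 cells, 2900 from HFD+F+CCl4 mouse 1, 729 from WD+F+CCl4 mouse 3 and 0 from the control mice, and Hspa1a was at 1146 CPM in its cells of HFD+F+CCl4 mouse 1. In the clustering used here those genes were left out, and the highest level of Hspa1a in a monocyte/macrophage-like cluster was 1102 CPM in HFD+F+CCl4 mouse 1 and 320.0 CPM in WD+F+CCl4 mouse 3, in the cluster led by Cd300e and Ear2.

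Within a mouse, Hspa1a and Hspa1b were divided differently between monocyte/macrophage-like and T cell-like cells in NASH and control mice. The ratio of the Hspa1a level in monocyte/macrophage-like cells to that in T cell-like cells was 1.22, 1.55 and 1.38 in the HFD+F+CCl4 mice, 0.989, 1.13 and 1.36 in the WD+F+CCl4 mice, and 3.06 and 6.12 in the control mice. The Hspa1b ratio was 0.751, 0.828 and 1.21, then 0.525, 0.555 and 0.664, and 3.34 and 2.52 in the control mice. Both control mice lay above all 6 NASH mice for each gene, including the 2 mice with the high levels. In a fit with a term for each mouse, the effect of the model in monocyte/macrophage-like cells minus that in T cell-like cells was -1.48 ± 0.27 (log2, SE) for Hspa1a and -1.84 ± 0.26 for Hspa1b in HFD+F+CCl4 (edgeR, adjusted p = 0.0075 and 0.0019). In WD+F+CCl4 it was -1.78 ± 0.28 and -2.58 ± 0.27 (adjusted p = 0.0031 and 0.00034). These were the 2 of 10 members called in each model, against 5.2% of all genes tested for HFD+F+CCl4 and 5.83% for WD+F+CCl4.

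The control side of this difference rests on few cells and UMIs. Control mouse 2 contributed 17 Hspa1a UMIs from its 192 monocyte/macrophage-like cells, and without control mouse 1 no member was called (adjusted p between 0.0703 and 0.299). The control cells also lay in other clusters, since 391 of 445 and 168 of 192 monocyte/macrophage-like cells lay in 1 cluster (cluster 2) and 3771 of 4139 and 790 of 970 T cell-like cells in another (cluster 7), while the T cell-like cells of NASH mice lay mostly in cluster 3. Between cluster 2 and cluster 3 alone, the Hspa1a ratio was 1.10, 2.09 and 1.57 in the HFD+F+CCl4 mice, 1.05, 1.27 and 2.30 in the WD+F+CCl4 mice, and 4.99 and 3.85 in the control mice (in control mouse 2 from 17 and 6 UMIs). The Hspa1b ratio there was 0.478, 1.13 and 1.07, then 0.493, 0.525 and 0.832, and 5.81 and 2.89 in the control mice. The control mice were above the NASH mice within these clusters too, and the part of the different clusters in the difference was not tested. The 12 monocyte/macrophage markers summed in T cell-like cells to 1423 and 2108 CPM in the control mice and 2713 to 4519 CPM in the NASH mice. In monocyte/macrophage-like cells they summed to 32056 and 33293 CPM and to 15293 to 18605 CPM. The part of such carried transcripts in the ratios was not tested.

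The Hsp70 partners Dnajb1, which hands clients to Hsp70 and starts its ATP cycle, and Hsph1 (Hsp110), which helps Hsp70 to release ADP, had their highest medians in T cell-like and NK cell-like cells. Within a mouse, the highest type was T cell-like in 4 of 8 mice for each gene. It was NK cell-like in 3 mice for Dnajb1 and in none for Hsph1. The median of Dnajb1 over mice was 83.8 CPM in T cell-like and 73.2 CPM in NK cell-like cells and fell to 28.2 CPM in Kupffer cell-like cells, with ranges that overlapped between all neighbours in the order. Hsph1 ran from 85.7 CPM in T cell-like cells to 23.5 CPM in granulocyte-like cells. These lay below the next type by median, Kupffer cell-like, without overlap (12.5 to 27.0 against 30.3 to 70.4 CPM). Only NASH mice had enough Kupffer cell-like cells for a level. Dendritic cell-like cells of control mouse 1 (24.9 CPM) and plasmacytoid DC-like cells of WD+F+CCl4 mouse 2 (24.1 CPM) lay within the granulocyte-like range.

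The mouse with the highest level of these partners depended on the cell type. In T cell-like cells Dnajb1 was at 176, 67.6 and 71.6 CPM in the HFD+F+CCl4 mice, 96.1, 66.6 and 122 CPM in the WD+F+CCl4 mice, and 62.7 and 103 CPM in the control mice. Hsph1 was there at 184, 85.9 and 83.2 CPM, at 91.1, 78.5 and 85.5 CPM, and at 60.6 and 98.9 CPM. In monocyte/macrophage-like cells the same mouse had 54.8 CPM of Dnajb1 and 35.0 CPM of Hsph1, and control mouse 2 was highest with 79.1 CPM of each. Over the 12 types Dnajb1 was highest in HFD+F+CCl4 mouse 1 in 7 and in control mouse 2 in 4. Neither gene was called in any type in either comparison with control.

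Hspa8 (Hsc70) is the constitutive cytosolic Hsp70 that also serves clathrin uncoating and chaperone-mediated autophagy. It was lower in the NASH mice than in the control mice in several cell types. Among the tested types this was called by edgeR at the main settings only in the dendritic lineages. In plasmacytoid DC-like cells it was at 486, 468 and 502 CPM in the HFD+F+CCl4 mice, 505, 424 and 478 CPM in the WD+F+CCl4 mice, and 585 and 1312 CPM in the control mice. The groups did not overlap, and control mouse 2 lay far above control mouse 1. The value of HFD+F+CCl4 mouse 1 rests on 33 UMIs of 21 cells, with an exact 95% Poisson interval of 334 to 682 CPM that covers control mouse 1. The log2 fold change was -1.003 ± 0.256 (SE) for HFD+F+CCl4 and -0.94 ± 0.25 for WD+F+CCl4 (edgeR, adjusted p = 0.044 and 0.028). In dendritic cell-like cells, where Hspa8 was highest of the types in 7 of 8 mice, it was at 817, 739 and 787 CPM, at 709.9, 551 and 785 CPM, and at 1010.3 and 1913 CPM. The log2 fold change there was -0.998 ± 0.230 for WD+F+CCl4 (adjusted p = 0.023) and -0.82 ± 0.23 for HFD+F+CCl4 (adjusted p = 0.071). For HFD+F+CCl4 it was called by DESeq2 (-0.85, adjusted p = 0.0091) and by edgeR with no filter on low counts (-0.74, adjusted p = 0.012).

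The size of these falls rested on control mouse 2. That mouse, with the fewest UMIs per cell, had the highest Hspa8 of all mice in each of the 8 types where it had enough cells, from 1.51 to 2.61 times the next mouse. Without it the values in plasmacytoid DC-like cells were -0.35 and -0.24 (adjusted p = 0.632 and 0.666), and in dendritic cell-like cells -0.56 for WD+F+CCl4 (adjusted p = 0.185). Leaving out single NASH mice also moved adjusted p past 0.05 with little change in size, in plasmacytoid DC-like cells up to 0.226 for HFD+F+CCl4 (any NASH mouse but WD+F+CCl4 mouse 3) and 0.118 for WD+F+CCl4 (mice 1 and 2 of either NASH group), and in dendritic cell-like cells to 0.0622 and 0.0919 (WD+F+CCl4 mice 1 and 2). Hspa8 was at 1241.8 CPM also in the barcodes of control mouse 2 that were not kept, against 118 to 484 CPM in those of the other mice. The hepatocyte markers in plasmacytoid DC-like cells summed to 1254 and 1926 CPM in the control mice and to 138 to 1339.8 CPM in the NASH mice, and the monocyte/macrophage markers there to 3051 and 4252 CPM against 4469 to 7706 CPM, without overlap. The hepatocyte markers summed in dendritic cell-like cells to 1137 and 1633 CPM against 196 to 708 CPM. Their part in the difference was not tested. In monocyte/macrophage-like cells Hspa8 was at 611, 606 and 707 CPM, 636, 540.2 and 560.4 CPM, and 842 and 1559.5 CPM, again without overlap. It missed the threshold at the main settings (edgeR, -0.76, adjusted p = 0.083, and -0.86, adjusted p = 0.054). For WD+F+CCl4 edgeR called it with RLE size factors, no scaling beyond library size and no filter on low counts (-0.95, -1.04 and -0.85, each adjusted p = 0.037). The same held with only the 2 groups compared and with clustering on all variable genes (-0.90 and -0.92, adjusted p = 0.041 and 0.049). Without HFD+F+CCl4 mouse 1 or 3 it was called too (-0.88 and -0.86, adjusted p = 0.046 and 0.042). In cluster 2 alone, an alternative chosen after seeing the data, it was called for WD+F+CCl4 (-0.87 ± 0.22, adjusted p = 0.032), as the only member there, where 5.38% and 8.51% of all genes were called for HFD+F+CCl4 and WD+F+CCl4. In T cell-like cells the control mice were at 753 and 1405 CPM and the NASH mice at 438 to 668 CPM. In cholangiocyte-like cells the control mice were at 495 and 745 CPM and the NASH mice with enough cells at 352 to 463 CPM. At the main settings edgeR called Hspa8 in neither type. In T cell-like cells it was called for WD+F+CCl4 by DESeq2 (-0.78, adjusted p = 0.021) and by edgeR with no filter on low counts (-0.76, adjusted p = 0.036). The groups overlapped in B, NK and endothelial cell-like cells.

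**Figure D3:**
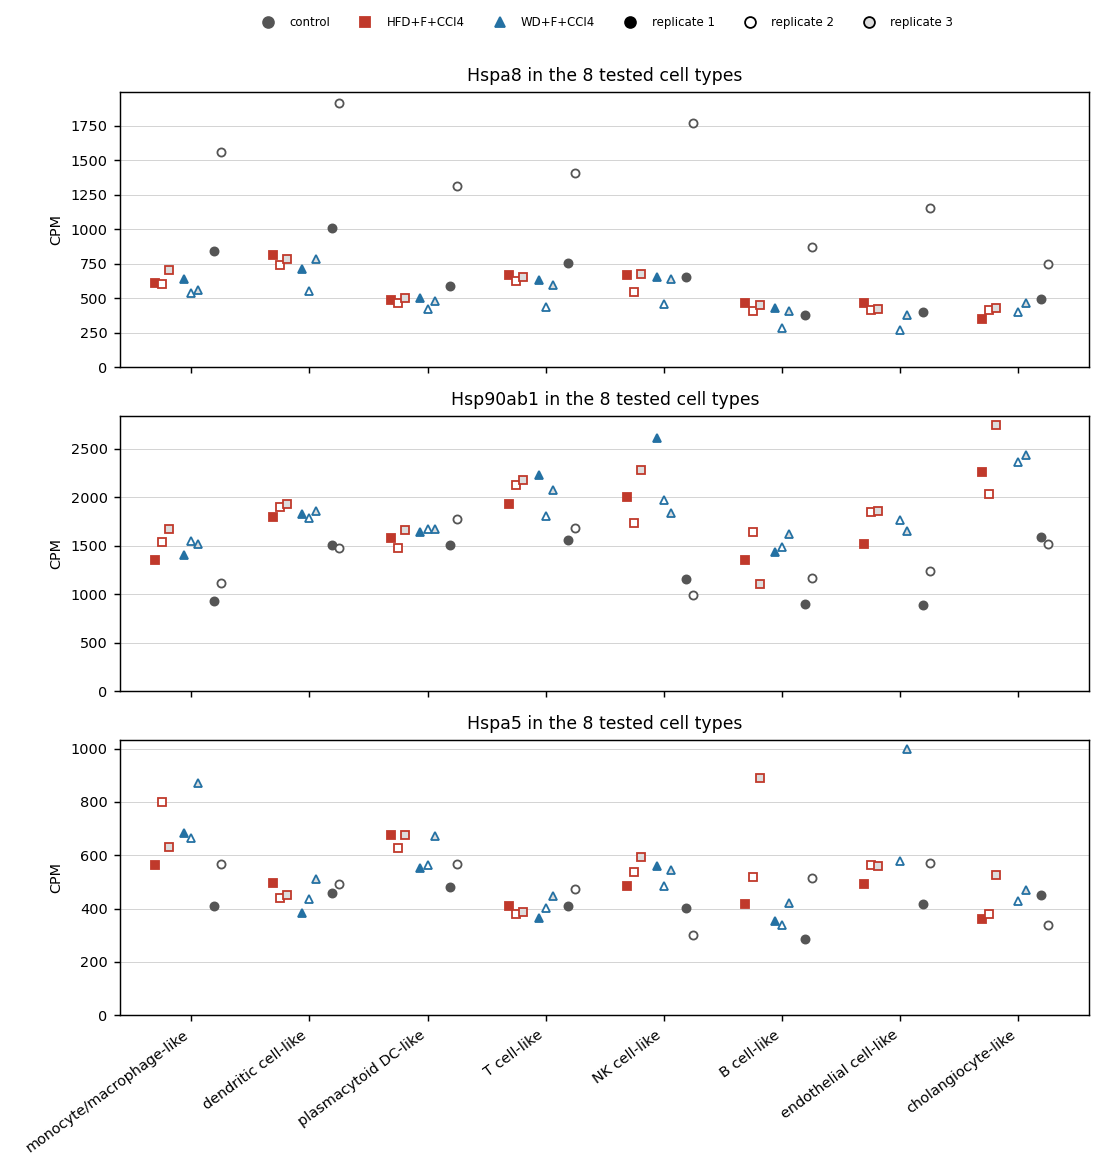
CPM of Hspa8, Hsp90ab1 and Hspa5 in the 8 tested cell types; each point is 1 mouse, with group by colour and shape. Control mouse 2 is the highest point for Hspa8 in each of the 8 types, and both control mice lie below every NASH mouse shown for Hsp90ab1 in 6 types, all but B cell-like and plasmacytoid DC-like cells.

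Hsp90ab1, the constitutive cytosolic Hsp90 that keeps kinases and steroid receptors active, was higher in the NASH mice in NK cell-like cells. It was at 2005, 1729 and 2277.5 CPM in the HFD+F+CCl4 mice, 2607, 1967 and 1838 CPM in the WD+F+CCl4 mice, and 1156 and 993 CPM in the control mice, with no overlap. The log2 fold change was 1.03 ± 0.30 (SE, edgeR, adjusted p = 0.047) for HFD+F+CCl4 and 1.20 ± 0.30 (adjusted p = 0.016) for WD+F+CCl4. Control mouse 2 had 22 NK cell-like cells with 23 Hsp90ab1 UMIs, for which the exact 95% Poisson interval is 629 to 1490.0 CPM. Neither call was kept without control mouse 1 (adjusted p = 0.162 and 0.0886) or without control mouse 2 (0.196 and 0.0877), although the log2 fold changes were 0.79 or more. For HFD+F+CCl4 it was lost without any 1 mouse but WD+F+CCl4 mouse 3 (adjusted p up to 0.196), and for WD+F+CCl4 also without WD+F+CCl4 mouse 1 (0.99, adjusted p = 0.0802). In these NK cell-like cells the 12 monocyte/macrophage markers summed to 2232 to 4632 CPM in the NASH mice and 1184 and 1209 CPM in the control mice, and the 10 hepatocyte markers to 88.3 to 992 CPM and to 1802 and 1985.5 CPM. Their part was not tested.

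In the other 7 types Hsp90ab1 was not called by edgeR, with positive log2 fold changes except for HFD+F+CCl4 in plasmacytoid DC-like cells (-0.12). DESeq2 called it for WD+F+CCl4 in B cell-like (0.69, adjusted p = 0.024) and T cell-like cells (0.48, adjusted p = 0.040). It also called Hsp90ab1 in monocyte/macrophage-like cells in both models. In monocyte/macrophage-like cells Hsp90ab1 was at 1349.9, 1534 and 1676 CPM, 1408.5, 1552 and 1513 CPM, and 935 and 1111 CPM. The log2 fold change there was 0.67 (edgeR, adjusted p = 0.105) and 0.69 (adjusted p = 0.087). In endothelial cell-like cells the control mice were at 885 and 1240.1 CPM and the 5 NASH mice with enough cells between 1518.5 and 1854 CPM. The control mice were below all NASH mice also in T cell-like cells (1561 and 1685 against 1809.6 to 2226 CPM), dendritic cell-like cells (1508 and 1473 against 1782 to 1932 CPM) and cholangiocyte-like cells (1588.5 and 1513 against 2034 to 2745 CPM). In B cell-like cells the control mice were at 903 and 1172 CPM, and of the 6 NASH mice 1 lay between them (1109.6 CPM). Across types, Hsp90ab1 was highest in cholangiocyte-like cells in 5 of 7 mice (1513 to 2745 CPM over all 7), and its median was lowest in granulocyte-like cells (809 CPM, from 473 to 939 CPM). Hsp90aa1, the stress-inducible Hsp90, fell in plasmacytoid DC-like cells, from 439 and 487 CPM in the control mice to 353, 301 and 309 CPM in the HFD+F+CCl4 mice and 296, 269 and 332 CPM in the WD+F+CCl4 mice. The 2 control mice lay above all 6 NASH mice, in cells in which the monocyte/macrophage markers differed as given for Hspa8. Both control mice were also above all NASH mice for Hsp90aa1 in T cell-like cells (498 and 487 against at most 432 CPM) and dendritic cell-like cells (442 and 428 against at most 356 CPM). The same held for the mice with enough cholangiocyte-like cells (563 and 632 against at most 501 CPM) and in all kept cells (420 and 380 against at most 333 CPM). It was not called in any of these, and the groups overlapped in the other tested types. The change in plasmacytoid DC-like cells was called for WD+F+CCl4 only (-0.58 ± 0.17, edgeR, adjusted p = 0.048, and -0.62 ± 0.18, adjusted p = 0.078, for HFD+F+CCl4), the difference between the 2 models was not called, and the call was lost when any 1 of the 8 mice was left out.

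Hspa5 (BiP), the Hsp70 of the ER lumen and sensor partner of the unfolded protein response (UPR), was highest in Kupffer cell-like cells in all 5 mice with enough of them (832 to 1541 CPM) and next, by its median of 648 CPM, in monocyte/macrophage-like cells. The ranges of the 2 types overlapped, since monocyte/macrophage-like cells reached 872 CPM. The window before Hspa5 is shown for the ER stress element, CCAAT, 9 bases and CCACG, in capitals, at chr2:34772019-34772048 on the plus strand (RefSeq, GRCm38.p6), which GENCODE counts to the untranslated first exon of the gene.
Hspa5: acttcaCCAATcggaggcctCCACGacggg
This spacing occurred in 0.119% of the 32851 promoters on either strand, and in 1 of the 7 members listed there.

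Compared with control mice, Hspa5 in all kept cells did not overlap between the groups but missed the threshold. It was at 536, 664 and 552 CPM in the HFD+F+CCl4 mice, 587, 575 and 870.3 CPM in the WD+F+CCl4 mice, and 413 and 505 CPM in the control mice. The log2 fold change was 0.48 ± 0.23 (edgeR, adjusted p = 0.19) and 0.75 ± 0.23 (adjusted p = 0.056), and with both HFD+F+CCl4 mouse 1 and WD+F+CCl4 mouse 3 left out, chosen after seeing the data, it was 0.66 and 0.67 (adjusted p = 0.046 and 0.036). Sums over all cells move with the mix of types, so that more cells of a type and more RNA per cell cannot be told apart in them, and the control mice held 445 and 192 monocyte/macrophage-like cells against 5033 to 6442 in the NASH mice. Within monocyte/macrophage-like cells Hspa5 was at 564, 799 and 631 CPM, 683, 666 and 872 CPM, and 411 and 567 CPM, where HFD+F+CCl4 mouse 1 lay below control mouse 2, and the fold change was 0.56 (adjusted p = 0.199) and 0.77 (adjusted p = 0.086). In cluster 2, which holds most control cells of the type, the values were 543, 459.8 and 539 CPM, 532, 473 and 429 CPM, and 399 and 519.8 CPM, and the groups overlapped. Of the other clusters of the type, the one led by Ms4a7, Pf4 and Gpnmb had 597 to 1114 CPM in the NASH mice. Control mouse 1 lay within that range, at 726 CPM from 53 UMIs of 23 cells, and control mouse 2 had 11 cells there. The effect in monocyte/macrophage-like minus that in T cell-like cells was 0.58 ± 0.20 and 0.60 ± 0.20 for Hspa5 (edgeR, adjusted p = 0.134 and 0.111). It was called without HFD+F+CCl4 mouse 1 (0.88 and 0.78, adjusted p = 0.035 and 0.036) and with no filter on low counts (0.75 and 0.80, adjusted p = 0.0034 and 0.0015). For WD+F+CCl4 it was also called with no scaling beyond library size (0.75, adjusted p = 0.040).

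Among the genes most like Hspa5 over the same 87 sums were Pdia6 (Pearson r 0.75) and Calr (0.71), ER folding proteins, Tmed10 (0.69), a cargo receptor of ER-to-Golgi traffic, and Tcirg1 (0.67), a subunit of the vacuolar proton pump. None of the other members passed 0.16 against Hspa5.

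The mitochondrial chaperonin Hspd1 (Hsp60) and its lid Hspe1 (Hsp10) had their highest medians in hepatocyte-like cells. Their genes lie head to head on chromosome 1 and overlap by 112 bases, Hspd1 on the minus strand at 55077835 to 55088243 and Hspe1 on the plus strand at 55088132 to 55091307 (GRCm38, GENCODE vM21). A stretch that lies in the Hspe1 window and in 1 of the 2 Hspd1 windows, and by GENCODE in an untranslated first exon of Hspd1, is shown because it holds 3 matches that overlap in 2 places by 3 letters, TTCNNGAA, GAANNTTC and TTCNNGAA (capitals), at chr1:55088053-55088082 on the plus strand (RefSeq, GRCm38.p6).
Hspe1: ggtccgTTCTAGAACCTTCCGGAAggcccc
Overlapping matches of this kind were found in 0.603% of the 32851 promoters. Hspd1 has 2 windows in the table. The 1 that holds these matches shares 285 of its 300 bases with the Hspe1 window, and the other held 0 matches.

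Hspd1 was highest in hepatocyte-like cells in 7 of 7 mice, at 628, 743 and 544 CPM in the HFD+F+CCl4 mice, 593, 789 and 738 CPM in the WD+F+CCl4 mice, and 285 CPM in control mouse 1, from 38 cells. The 1903 cells of that mouse in an unnamed cluster led by Serpina3k, Mup3 and Mug1, whose best marker score was also that of hepatocytes, had 119 CPM, below its T cell-like cells (178 CPM). Every value of the hepatocyte-like cells exceeded the next type, cholangiocyte-like cells (136 to 211 CPM). Hspe1 was highest in hepatocyte-like cells in 6 of the 7 mice (369 to 854 CPM), overlapping with the next type, dendritic cell-like (275 to 524 CPM). Granulocyte-like cells were lowest for both, with medians of 61.5 and 109 CPM. The genes most like Hspd1 were the mitochondrial ATP synthase subunits Atp5g3 (0.91), Atp5g1 (0.88) and Atp5b (0.88), the mitochondrial ribosomal protein Mrpl12 (0.86) and Chchd2 (0.85), and Hspe1 itself was at 0.74. In all kept cells Hspd1 was at 107, 146 and 125 CPM in the HFD+F+CCl4 mice, 132, 139 and 137 CPM in the WD+F+CCl4 mice, and 138 and 194 CPM in the control mice. Hspe1 was there at 168, 269.7 and 257 CPM, 288, 259 and 228 CPM, and 364 and 419 CPM. HFD+F+CCl4 mouse 1 was the lowest mouse for both, and only Hspe1 kept NASH and control mice apart (log2 fold change -0.61, edgeR, adjusted p = 0.16, and -0.40). These sums move with the mix of types, as given for Hspa5. In monocyte/macrophage-like cells control mouse 1 (228 CPM of Hspe1) lay within the NASH mice (154 to 238 CPM). In T cell-like cells WD+F+CCl4 mouse 1 (464 CPM) lay above both control mice (418 and 444 CPM). The groups stayed apart for Hspe1 in dendritic, plasmacytoid DC-like and cholangiocyte-like cells. Hepatocyte-like cells could not be tested, since only 1 control mouse had 20 of them. In the 8 types tested neither gene was called, and the nearest was Hspe1 in plasmacytoid DC-like cells (-0.68, edgeR, adjusted p = 0.051, for HFD+F+CCl4).

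**Figure D4:**
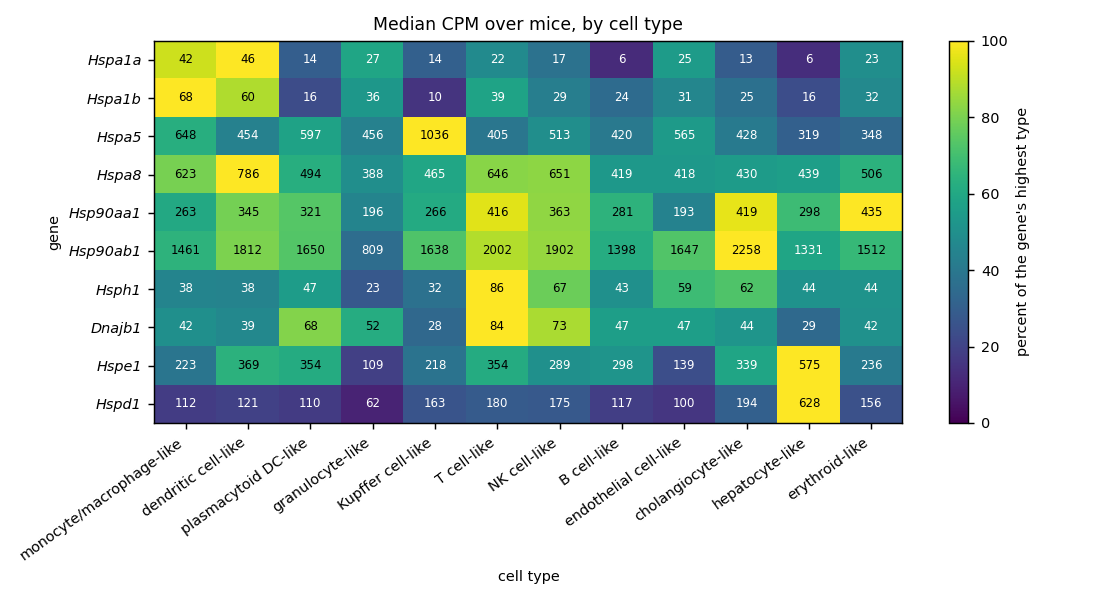
Median CPM over mice of each of the 10 chaperones in 12 cell types (numbers), with colour giving the level as a percent of the gene's highest type. Hspd1 and Hspe1 peak in hepatocyte-like cells (628 and 575 CPM), Hspa5 in Kupffer cell-like cells (1035 CPM), Hspa8 in dendritic cell-like cells (786 CPM) and Dnajb1 and Hsph1 in T cell-like cells (83.8 and 85.7 CPM).

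Over the 80 pairs of gene and type, 2 were called for HFD+F+CCl4 against control and 4 for WD+F+CCl4 against control (edgeR, adjusted p under 0.05 within each type). Over all genes and the same types 4.14% and 6.65% of pairs were called, so the members' share was below the background in both. At an unadjusted p under 0.05 there were 22 and 16 pairs (27.5% and 20%), beside 18.1% and 21.0% of all pairs. DESeq2 called 5 and 9, where it called 5.28% and 7.01% of all pairs. Set against HFD+F+CCl4 mice, WD+F+CCl4 mice had no pair called by edgeR, where the background was 0.0202%. At an unadjusted p under 0.05 there were 6 pairs (7.5%), beside 5.41% of all pairs. In all kept cells no member was called in any of the 3 comparisons, while 18.9% of genes were called for HFD+F+CCl4, 21.4% for WD+F+CCl4 and 0.0% between the models. At an unadjusted p under 0.05 the members numbered 0, 3 and 0, beside 34.5%, 35.9% and 3.88% of all genes. DESeq2 called 1 member, Hspa5, for WD+F+CCl4 (0.83, adjusted p = 0.0025), where it called 27.9% of genes.

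**Figure D5:**
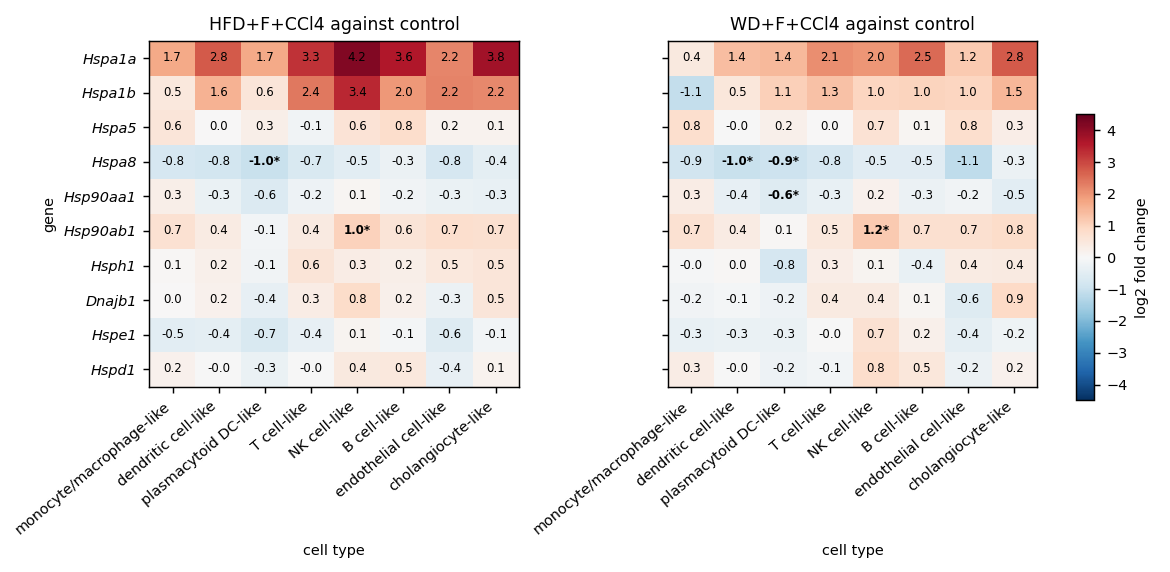
Log2 fold change of each chaperone against control for HFD+F+CCl4 (left) and WD+F+CCl4 (right) in the 8 tested types; a star marks an adjusted p under 0.05 in edgeR's quasi-likelihood test. The 6 stars lie on Hsp90ab1 in NK cell-like cells (1.03 and 1.20), Hspa8 in plasmacytoid DC-like cells (-1.003 and -0.94), Hspa8 in dendritic cell-like cells (-0.998) and Hsp90aa1 in plasmacytoid DC-like cells (-0.58).

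Monocyte/macrophage-like cells were the largest type, with 34679 cells. At the main settings edgeR called no member there in either comparison with control, against 6.11% and 7.59% of all genes. At an unadjusted p under 0.05 there were 3 members in each, beside 23.6% and 25.1% of all genes. DESeq2, which called 10.3% and 11.3% of genes in these cells, called Hsp90ab1 (0.62 and 0.61, adjusted p = 0.0035 and 0.0040) and Hspa8 (-0.81 and -0.94, adjusted p = 0.0043 and 0.00055) in both models and Hspa5 for WD+F+CCl4 (0.69, adjusted p = 0.028). The median log2 fold change of all genes in this type was 0.14 in both comparisons, and that of the 10 members was 0.24 and 0.14.

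Wider chaperone lists gave a few calls in these cells, where 3.19% of all genes rose and 2.92% fell with HFD+F+CCl4, and 4.12% rose and 3.47% fell with WD+F+CCl4. Of the 22 HSF1-linked genes, 2 rose and 0 fell in each model, among them St13, an Hsp70 and Hsp90 linker (1.18 ± 0.21, adjusted p = 0.015, for HFD+F+CCl4 and 1.36 ± 0.22, adjusted p = 0.0095, for WD+F+CCl4). Of 18 ER chaperones and UPR genes, Xbp1, the UPR transcription factor, fell with HFD+F+CCl4 (-0.82 ± 0.20, adjusted p = 0.042), and with WD+F+CCl4 the lectin chaperone Calr (1.18 ± 0.22, adjusted p = 0.016) and Manf, a secreted ER stress protein (0.97 ± 0.23, adjusted p = 0.038), rose. Of 7 mitochondrial chaperones and proteases, the protease Lonp1 rose in both models (0.96 ± 0.20, adjusted p = 0.027, and 1.02 ± 0.20, adjusted p = 0.019) and Hspa9, the mitochondrial Hsp70, with WD+F+CCl4 (0.74 ± 0.18, adjusted p = 0.039). Of the 8 subunits of the TRiC chaperonin, Cct7 rose with WD+F+CCl4 (0.92 ± 0.18, adjusted p = 0.019). Medians of the log2 fold change were 0.12 and 0.21 for the HSF1-linked list, 0.43 and 0.55 for the ER list, 0.47 and 0.72 for the mitochondrial list and 0.35 and 0.47 for TRiC, beside 0.14 for all genes. The 20 dissociation and immediate early genes that could be tested had medians of 1.02 and 0.44 and 0 calls in these cells (edgeR), and in all kept cells 8 rose for HFD+F+CCl4 and 4 for WD+F+CCl4, beside 9.63% and 11% of all genes that rose there.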

How the data were processed

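Liver cells of 8 mice were profiled with 10x 3′ v3 chemistry. The authors deposited UMI counts, made with bcl2fastq 2.20 and Cell Ranger on GRCm38 (the matrix header names version 4.0.0 and the methods a later one, and which of them made the counts is not known), in 1 matrix not filtered for cell quality, in which a suffix of the barcode gives the mouse. For the annotation release and any removal of free RNA or doublets, nothing is given in the sources used here.

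Cells needed over 500 detected genes and a mitochondrial share of UMIs below 25%. Counts were scaled to 10000 per cell, and 2000 variable genes (chaperone and dissociation lists left out), 30 principal components, 20 neighbours and Leiden clustering at resolution 0.42 (scanpy 1.11.5, leidenalg 0.10.2) gave 20 clusters. Names needed markers in a share of 0.1 of cells, a score of 0.3 and a lead of 0.2, and clusters with over 90% of cells from 1 mouse stayed unnamed; these limits were set after seeing the clusters. Doublets were kept, and left out by rank as an alternative (7452 barcodes). UMIs were summed per mouse and type (at least 20 cells) and tested over all genes with edgeR 4.0.16 (quasi-likelihood, TMM, filterByExpr with a minimum of 10, all 8 mice, Benjamini-Hochberg 0.05), with a mouse term for the difference between types. DESeq2 1.42.0 and other scalings, filters, cell limits and left-out mice were alternatives. The tests were checked on simulated counts. The members, the lists and several tests were chosen with earlier results of these data known. All 10 members are named. Of each other list, the 3 genes of largest fold change among those called in monocyte/macrophage-like cells are named, and for Hspa1a, Hspa5 and Hspd1 the 5 most correlated genes of at least 20 CPM (log2 with a pseudocount of 1). Of the genes this rule names, 2 are not reported here. Sequences came from the RefSeq promoter table (GRCm38.p6) and gene positions from GENCODE vM21.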

Additional observations from a re-analysis of the deposited data

Results flagged for a closer look

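The effect of the models on Hspa1a and Hspa1b differed between monocyte/macrophage-like and T cell-like cells by the test of the difference itself, by -1.48 and -1.84 (log2) in HFD+F+CCl4 and by -1.78 and -2.58 in WD+F+CCl4. Within each mouse, the ratio of the 2 types was higher in both control mice than in all 6 NASH mice for both genes. Markers of other types carried in T cell-like cells also differed between control and NASH mice, and their part was not tested.

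A signal was also present in barcodes outside the comparisons. In the 907 barcodes of HFD+F+CCl4 mouse 1 that were not kept, Hspa1a was at 309 CPM (178 of 576897 UMIs) and Hspa1b at 345 CPM. In such barcodes of the other 7 mice, Hspa1a lay between 4.21 and 25.6 CPM and Hspa1b between 4.14 and 50.2 CPM.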

How the results depend on the processing

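None of the values called changed direction. In all kept cells, the count of members called against control moved from 0 to 1 for HFD+F+CCl4 with no scaling beyond library size (Hspe1) and with both HFD+F+CCl4 mouse 1 and WD+F+CCl4 mouse 3 left out (Hspa5), and for WD+F+CCl4 to 1 with DESeq2, RLE size factors, no filter on low counts, more than 1000 genes per cell, without the clusters that each came mostly from 1 control mouse and with both mice left out (each Hspa5), and to between 0 and 1 with 1 mouse left out. Of the pairs of member and type for HFD+F+CCl4 (2), DESeq2 called 5, RLE 1, no scaling 1, no filter 13, only the 2 groups compared 1, more than 1000 genes 0, doublets left out 0 and both mice left out 1, and leaving out 1 mouse gave 0 to 3. For WD+F+CCl4 (4) the counts were 9 with DESeq2, 12 with no filter and 1 with more than 1000 genes, and 0 to 4 with 1 mouse left out. Between the models no filter gave 6 pairs. For the difference between monocyte/macrophage-like and T cell-like cells (2 and 2), leaving out 1 mouse gave 0 to 3 in each model, and no filter gave 4 for WD+F+CCl4. Hspa5 was also called there with no filter for HFD+F+CCl4 and with no scaling for WD+F+CCl4. In monocyte/macrophage-like cells, cluster 2 alone gave 1 for WD+F+CCl4. The other edgeR settings named for Hspa8 in this type also called it for WD+F+CCl4. The cause of these changes was not tested. The limit of more than 1000 genes left too few control cells in 3 of the 8 types, which took no part there.

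With 1 mouse left out, log2 values ranged from 0.79 to 1.66 (HFD+F+CCl4) and 0.95 to 1.82 (WD+F+CCl4) for Hsp90ab1 in NK cell-like cells. For Hspa8 they ranged from -1.46 to -0.35 and -1.37 to -0.24 in plasmacytoid DC-like cells and from -1.29 to -0.56 in dendritic cell-like cells (WD+F+CCl4). For Hsp90aa1 in plasmacytoid DC-like cells they ranged from -0.60 to -0.47. For the difference between types they ranged from -1.95 to -1.21 and -2.24 to -1.50 for Hspa1a, and from -2.06 to -1.25 and -2.73 to -1.96 for Hspa1b. The call was lost in 16 of 19 settings for Hsp90aa1, in 12 of 18 and 3 of 18 for Hsp90ab1, in 12 of 19 and 9 of 19 for Hspa8 in plasmacytoid DC-like cells, in 3 of 19 in dendritic cell-like cells, and in 1 of 13 for each difference between types.

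The labels give same-numbered mice no shared litter, batch or day. Their deviations from the group means correlated at -0.546, 0.068 and -0.653 between the NASH groups, below those of some differently numbered mice (0.665 for HFD+F+CCl4 mouse 1 with WD+F+CCl4 mouse 3, 0.518 for HFD+F+CCl4 mouse 3 with WD+F+CCl4 mouse 2), so no pairing was used. A replicate block called 4 pairs for HFD+F+CCl4 in place of 2. The control side is limited by 2 mice, of which mouse 2 had 6135827 UMIs.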
